A study of Homo sapiens with 10 samples.

Results

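The parental line of a CCAR1 knockout study was described on its own: 5 libraries of unedited RPE p53-/- cells, of 10 libraries in the series. They were chosen by their titles, which name them as parental controls and number them as replicates 1 to 5. RPE stands for retinal pigment epithelium, the eye tissue this human cell line is labelled with, and p53-/- is its genotype as the labels give it. All 5 libraries share that genotype, the labelled epithelial cell type and the growth medium, DMEM/F12 with GlutaMAX and fetal bovine serum, and none carries the CCAR1 knockout. The labels do not say whether the line is a single clone, how it was made to grow without limit, or whether the replicates were separate cultures, so the spread between libraries may be technical. Polyadenylated RNA was sequenced, and the question here was which genes the unedited cells express and at what level.

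In the eye the retinal pigment epithelium is a single layer of pigmented cells behind the photoreceptors. It regenerates the visual pigment through the retinoid cycle (RPE65, RLBP1, LRAT), makes melanin (TYR, DCT, PMEL) and engulfs shed photoreceptor tips (MERTK). Its identity is set by the transcription factors MITF, OTX2 and PAX6. Pigment epithelial cells kept in culture often lose pigment and take on a fibroblast-like form, with vimentin filaments, stress fibres and a secreted matrix.

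The table gave an estimated count for 62700 genes. The unit of level is CPM, the number of counts that fall to a gene out of 1e6 after scaling for library size. Where genes are set against each other the level is divided by the length of the longest annotated transcript, which gives CPM per kb. Means are given with the SD over the 5 libraries (n = 5) unless stated otherwise. A gene is called expressed where it reached 1 CPM in every parental library. Whether the counting used strand is unknown, so genes that overlap or lie antisense to another are uncertain, and close paralogs may share counts.

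The libraries fell into 2 sets by depth. Replicates 1 to 3 held 65.2, 57.3 and 57.5 M counts (M, 1e6), and replicates 4 and 5 held 385.4 and 327.1 M. A single count was worth 0.0154 to 0.0174 CPM in the shallow set and 0.00259 or 0.00308 CPM in the deep set. Within a set the libraries were close, with a median coefficient of variation (CV) of 4.35% in replicates 1 to 3 and 1.61% in replicates 4 and 5, against 12% over all 5. In edgeR's quasi-likelihood test of the deep against the shallow set, 59.1% of 19522 genes differed at an adjusted p under 0.05, 29.6% higher and 29.5% lower in the deep set. Most of these differences were small: 8.31% of genes differed at least 2-fold, 1.37% higher and 6.94% lower in the deep set. The set means lay within 1.5-fold of each other for 90.6% of the expressed protein-coding genes, and within 1.2-fold for 45.8%. Across all 12597 expressed genes Spearman's rho between the set means was 0.983, a description across genes, which are not independent replicates. Expressed genes reached 1 CPM in every library, so genes held by 1 set alone are outside the 1.5-fold, 1.2-fold and rho values. Among those left out are 97 genes at 1 CPM or more in every shallow library and under 0.1 CPM in both deep ones. Replicates 1 to 3 also held transcripts of muscle, blood and liver: 38 markers of these tissues summed to 630, 935 and 672 CPM there and to 20.7 and 19.5 CPM in replicates 4 and 5. In bulk RNA fewer cells of a type and less RNA per cell cannot be told apart. Where a gene is given as 1 mean ± SD, the SD spans both sets, and its levels in the 2 sets can differ.

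Of 62700 genes, 12597 (20.1%) were expressed. For protein-coding genes it was 11265 of 19831 (56.8%), the share against which the lists of protein-coding genes below can be read. Each library alone had between 12978 and 13377 genes at 1 CPM or more. Taken over replicates 1 to 3 the number was 12980, and over replicates 4 and 5 it was 12908. At the low end 19859 genes had no count in any library. Protein-coding genes took 97.7 ± 0.0501% of the counts.

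A small number of genes made up most of the RNA. The 100 most abundant genes held 20.6 ± 0.46% of the counts, a share of 20.9% in replicates 1 to 3 and of 20.1% in replicates 4 and 5. The 1000 most abundant held 53.9 ± 0.759%. By level, 90 genes at 1000 CPM or more held 19.6% of the summed CPM, 2089 genes at 100 to 1000 CPM held 50.2%, and 7082 genes at 10 to 100 CPM held 28.3%. Of the top 100, 86 were shared by the rankings of the shallow and the deep set, and of the top 1000, 886 were shared.

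**Figure D1:**
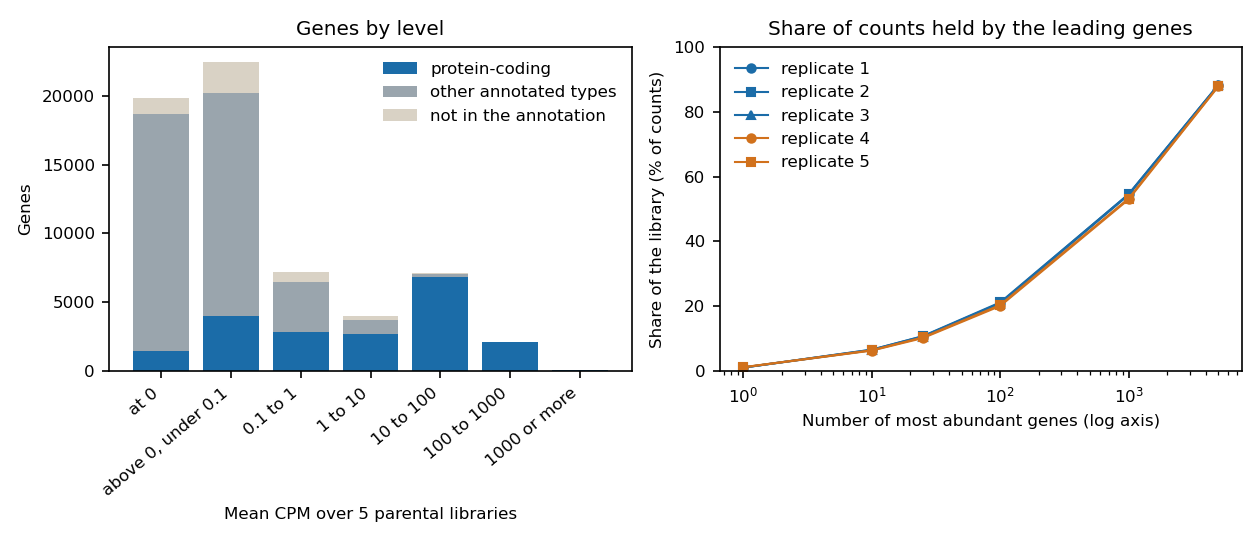
Left, genes of the table by mean level over the 5 parental libraries in CPM, coloured by annotated type, with bar height the number of genes. Right, share of each library's counts held by the leading genes (number of genes on a log axis), 1 line per library. The 5 lines lie on top of each other, reaching 20 to 21.1% at 100 genes, and the bars at 10 CPM and above are almost all protein-coding.

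The labelled tissue was checked first. Of 23 markers of differentiated pigment epithelium, 5 were expressed (21.7%, against 56.8% of protein-coding genes): RDH5 and RDH10, retinol dehydrogenases, SERPINF1, a secreted neurotrophic serpin, MERTK, the phagocytosis receptor, and BEST1, a chloride channel. RDH10 had 10.9, 12.2, 13.3, 12.3 and 11.7 CPM in replicates 1 to 5, and RDH5 had 7.22, 6.86, 7.54, 6.14 and 5.96. BEST1 stood at 1.41 ± 0.160 CPM. The defining enzymes of the visual cycle and of melanin were at or near 0. RPE65, the retinoid isomerase, had 0.0550 ± 0.0760 CPM and RLBP1, which carries retinaldehyde, had 0.0328 ± 0.0307. TYR, the enzyme that starts melanin synthesis, had 0.0213 ± 0.0142 CPM, DCT had 0.00574 ± 0.00709, and PMEL, a structural protein of pigment granules, had 0.424 ± 0.156. So most defining markers of the labelled tissue were absent or near 0, and the tissue name is used here only as the label of the line.

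Transcription factors of the eye were expressed in part, 8 of 16. SIX3, a homeobox gene of the early eye field, was the highest per length at 30.3 CPM per kb. The SIX3 level was 86.5, 82.8 and 82.4 CPM in the shallow and 67.1 and 63.3 CPM in the deep libraries, so the sets did not overlap. PAX6, the paired-box regulator of eye development, had 64.2, 64.3, 62.5, 65.4 and 63.2 CPM, with a spread of only 1.12 CPM. SOX9 stood at 65.0 ± 3.51 CPM, MITF at 38.3 ± 6.03 and OTX2 at 10.7 ± 0.712. MITF was higher in the deep libraries (43.9 and 45.5 CPM) than in the shallow ones (32.7 to 36.5 CPM). RAX and SIX6, eye field genes, had no count in any of the 5 libraries, which allows at most 0.00777 CPM in replicate 4, where 3 counts set the limit for counting error alone.

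Of 39 HOX genes, which pattern the body axis, 6 were expressed, and all but HOXA3 of these lie in the HOXB cluster (HOXB3, HOXB4, HOXB5, HOXB6 and HOXB9). HOXB9 was the highest, with 41.3, 36.7, 37.3, 36.4 and 37.3 CPM. The next per length, HOXB6, had 5.2 ± 0.646 CPM. HOXB1 and HOXC12 had no count in any library.

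**Figure D2:**
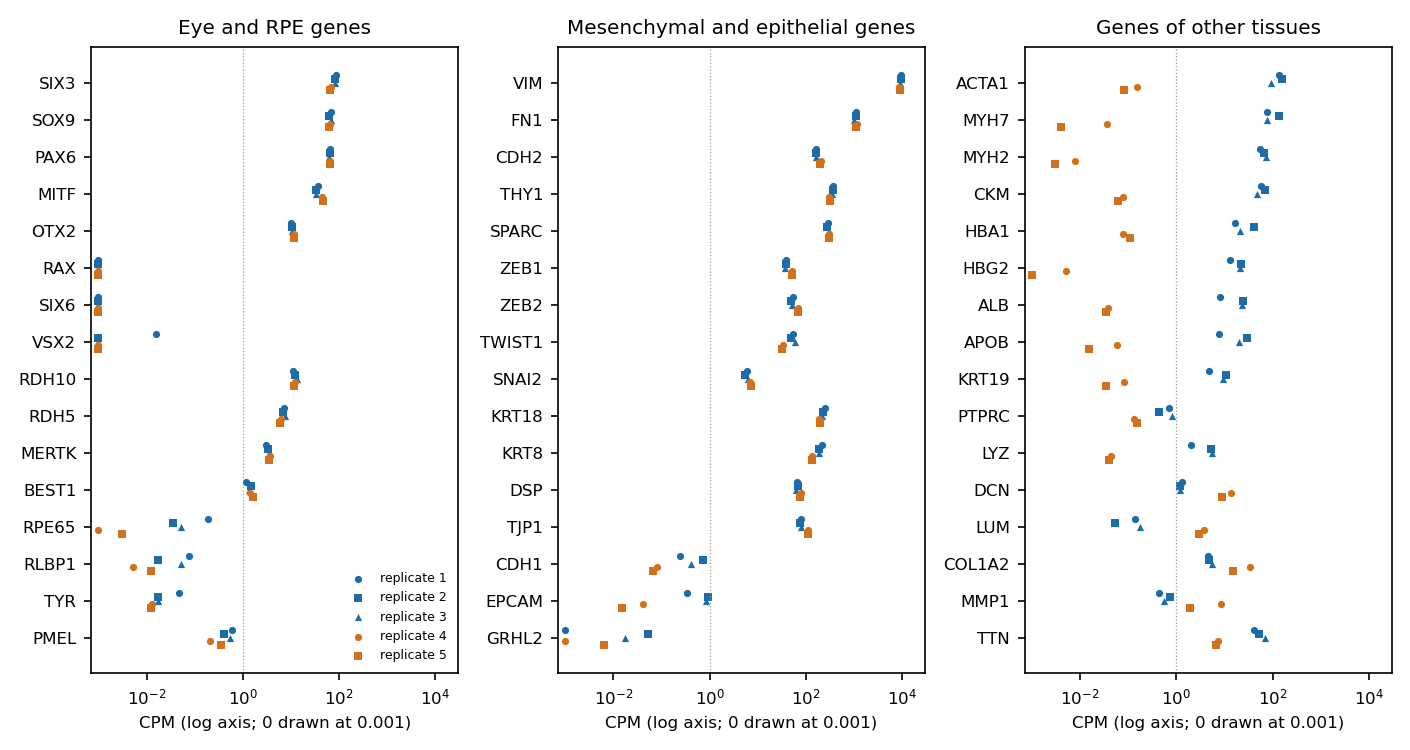
CPM of single genes in each library on a log axis, with 0 drawn at 0.001 and a dotted line at 1 CPM. Blue marks are replicates 1 to 3 and orange marks replicates 4 and 5. Eye regulators such as SIX3 and PAX6 lie between 60 and 90 CPM in all 5 libraries while RPE65, RLBP1 and TYR lie under 1 CPM, and the muscle, globin and liver genes of the right panel stand far higher in the blue libraries.

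Mesenchymal genes were expressed nearly throughout, 21 of 24. VIM, the intermediate filament protein vimentin, had 9384, 9266, 8902, 8725 and 8947 CPM. VIM was the highest of all nuclear protein-coding genes per length, at 3393 CPM per kb. FN1, the matrix glycoprotein fibronectin, stood at 1087 ± 53.5 CPM, THY1, a fibroblast surface protein, at 341 ± 26.5, and SPARC, a collagen-binding matrix protein, at 293 ± 9.33. CDH2, N-cadherin, had 177 ± 23.0 CPM. Among the regulators of the mesenchymal state on that list of 24, ZEB2 had 58.3 ± 9.23 CPM, TWIST1 45 ± 11.8, ZEB1 43.7 ± 7.82 and SNAI2 6.31 ± 0.741. POSTN, PDGFRA and LUM were the members not expressed, each under 1 CPM in every shallow library. Their means were 0.865 ± 0.440, 1.41 ± 0.777 and 1.41 ± 1.80 CPM. The VIM and FN1 values of the shallow and the deep libraries overlapped. In the edgeR test 12 of the 24 were higher and 4 lower in the deep set, against 29.6% and 29.5% of all genes tested.

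Epithelial junction genes and keratins were split, with 14 of 29 expressed. KRT18 and KRT8, the keratin pair of simple epithelia, were both expressed, KRT18 with 212 ± 23.9 CPM and KRT8 with 215, 188 and 188 CPM in the shallow and 132 and 135 CPM in the deep libraries. DSG2, a desmosomal cadherin, stood at 65.0, 66.3 and 63.8 CPM in the shallow and 89.7 and 89.3 CPM in the deep libraries. In contrast CDH1, E-cadherin, had 0.247, 0.728, 0.420, 0.0818 and 0.0666 CPM, and EPCAM had 0.340, 0.936, 0.850, 0.0414 and 0.0154. GRHL2, a regulator of epithelial genes, had 0.0151 ± 0.0218 CPM, and OVOL1, another, had no count. KRT19, another simple keratin, parted between the sets: it had 4.73, 10.5 and 9.44 CPM in replicates 1 to 3 and 0.0828 and 0.0339 CPM in replicates 4 and 5. The shallow libraries are those with the transcripts of other tissues, and their part in the KRT19, CDH1 and EPCAM levels was not tested. The keratin pair and DSG2 were thus expressed while E-cadherin stayed under 1 CPM in every library.

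Across the 47 gene lists described here, those of basic cell functions stood highest per length. The median member was at 1793 CPM per kb among the 13 mRNAs of mitochondrial DNA, 377 among the 79 cytosolic ribosomal proteins, 252 among 41 cytoskeletal genes and 180 among 27 translation factors. At the other end the median was 0.0359 CPM per kb for pigment epithelium markers and 0.0280 for HOX genes. All members were expressed in 11 lists on ribosomal proteins, mitochondrial mRNAs, cytoskeleton, replication, mitosis, Fanconi anemia, homologous recombination, end joining, nuclear coactivators, core spliceosome and telomeres.

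**Figure D3:**
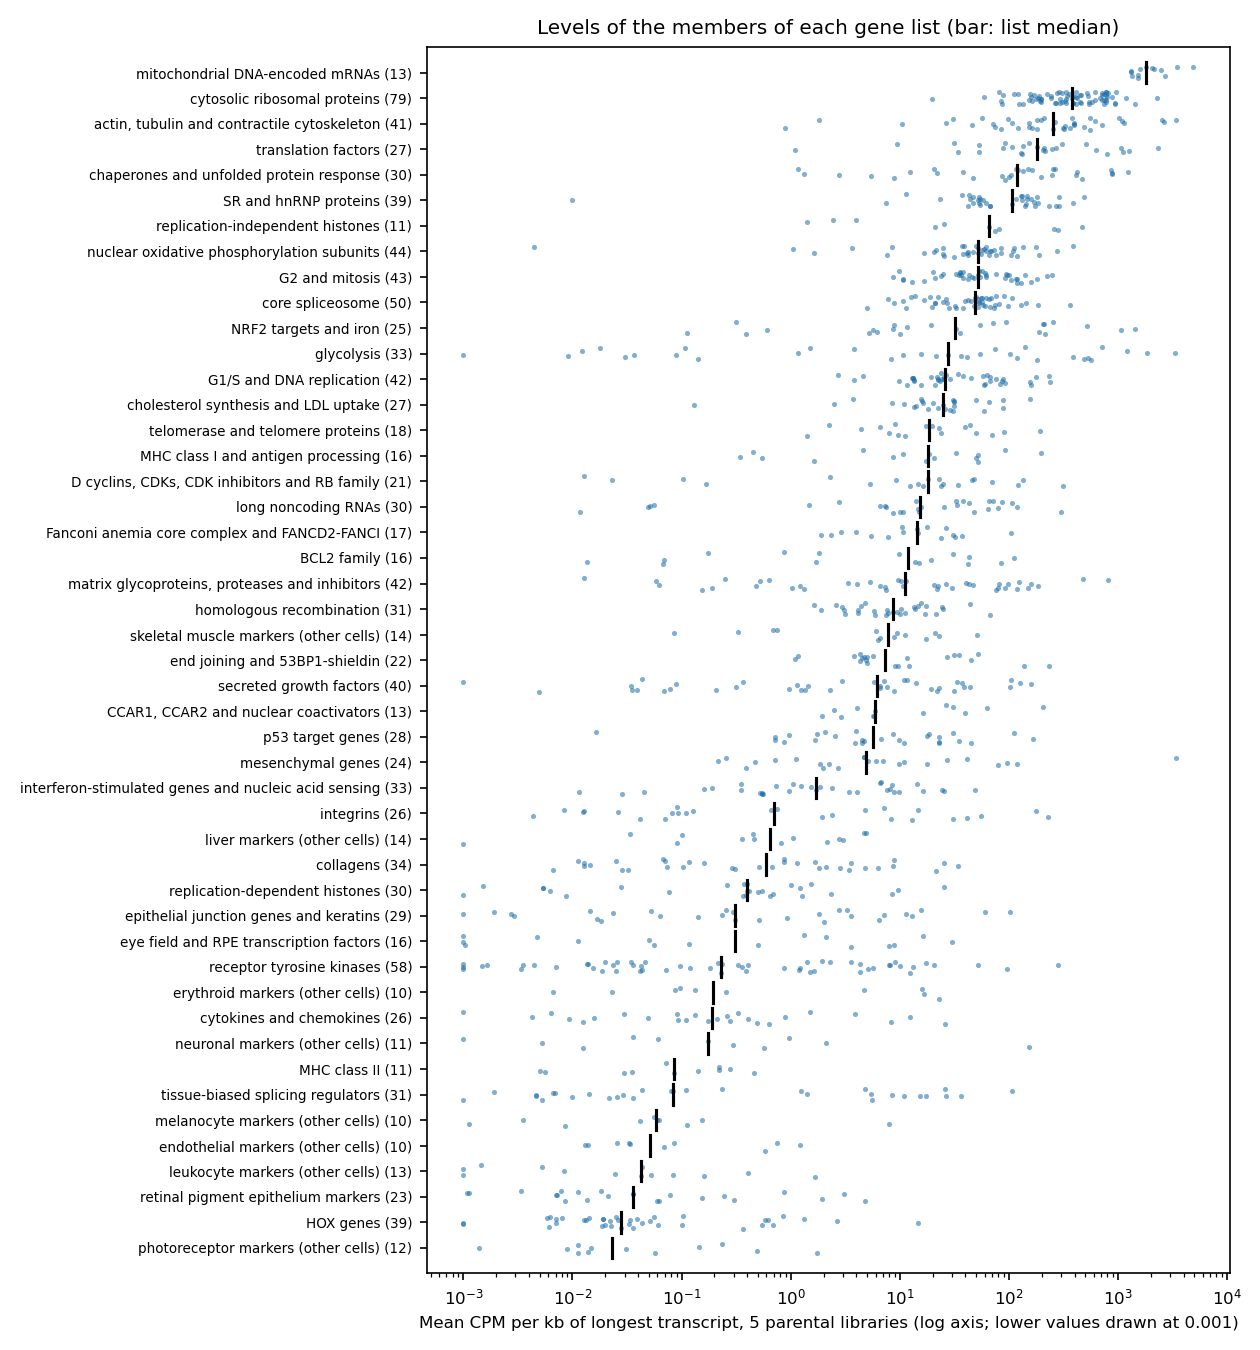
Each point is a gene, placed by its mean level over the 5 parental libraries in CPM per kb of longest transcript (log axis, lower values drawn at 0.001), and each black bar is the median of a list, with the number of genes in brackets. Lists run from mitochondrial mRNAs (median 1793 CPM per kb) to photoreceptor markers (median 0.0229).

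Of the 47 lists, the ribosomal proteins had the highest summed level. EEF1A1, the factor that brings aminoacyl-tRNA to the ribosome, was the most abundant gene with 9850, 9957, 9847, 10657.9 and 11011.2 CPM, or 1.03 ± 0.0518% of all counts. EEF2, the translocation factor, had 3745, 3614 and 3655 CPM in the shallow and 2993 and 3014 CPM in the deep libraries. NPM1, nucleophosmin, a nucleolar factor of ribosome assembly, had 2199 ± 208 CPM. The 79 ribosomal protein genes together had 59317.8 ± 6372.4 CPM. Per length RPL8 was highest of them at 2286 CPM per kb, followed by RPL41 at 1434 and RPL13A at 1181. That order depended on the length used. With the longest APPRIS principal transcript RPL13A stood at 2311 CPM per kb, above RPL8 at 2286, and RPLP0 at 1573, above RPL41 at 1434. Every one of the 79 was above 100 CPM on average, RPS29 the lowest at 140 ± 31.9 CPM. Ribosomal proteins, actins and tubulins have many processed copies in the genome, so their counts may be shared with those copies.

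Ribosomal protein mRNAs were lower in the deep set. Their sum was 63462.8, 64819.4 and 63326.4 CPM in replicates 1 to 3 and 50805.0 and 54175.6 CPM in replicates 4 and 5. RPL13A had 3139, 3001 and 3143 CPM against 2133 and 2231, and RPL8 had 2886, 2675 and 2775 against 1752 and 1810. In the edgeR test 59 of 79 were lower and 2 higher (RPS3A and RPL9) in the deep set, against 29.5% and 29.6% of all genes tested. Transcript length moved with the sets: over expressed protein-coding genes the median log2 difference of deep over shallow was -0.20 for transcripts of 192 to 2466 bases, 0.0058 for 2467 to 3798 bases, 0.14 for 3799 to 5567 bases and 0.31 for longer ones. The part of transcript length in the ribosomal protein difference, or in that of any other list or gene, was not tested.

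Many of these genes share a kind of transcript start. Transcripts with a 5' terminal oligopyrimidine tract, a C at the cap followed by a run of pyrimidines, are known as targets of growth-dependent translational control. The windows below show the annotated start of 4 of the most abundant translation genes, to let the shared letters be seen. Each runs from 10 bases before the start to 20 bases from it on, from RefSeq on GRCh38.p14, with the C and the pyrimidines that follow it in capitals.
EEF1A1 (chr6:73521013-73521042, minus strand): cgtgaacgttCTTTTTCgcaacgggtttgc
EEF2 (chr19:3985444-3985473, minus strand): cgtcagcgttCTCTTCCgccgtcgtcgccg
RPL13A (chr19:49487598-49487627, plus strand): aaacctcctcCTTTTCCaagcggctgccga
NPM1 (chr5:171387839-171387868, plus strand): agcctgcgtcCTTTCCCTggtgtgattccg

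Such a start, scored as C followed by at least 4 pyrimidines at the annotated position, was found in 43 of 63 ribosomal protein genes with a promoter entry (68.3%). It was found in 7 of 21 translation factors (33.3%) and in 4.66% of 15301 protein-coding promoters. By level, it was present at 2.96% of genes under 0.1 CPM, 4.72% of those at 10 to 100 CPM, 9.34% at 100 to 1000 CPM and 22.7% at 1000 CPM or more. The last is 15 of 66 genes. The level classes include the genes just scored: of the 100 most abundant genes, 16 are on the ribosomal protein list and 10 on the translation factor list. Whether the share rises with level without them was not tested. A match describes the letters at the annotated start only.

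All 41 genes of actin, tubulin and contractile filaments were expressed, with a sum of 57286.8, 53005.4, 52619.1, 47748.4 and 48426.3 CPM, and 17 of the 100 most abundant genes belonged to this list. ACTB and ACTG1, the cytoplasmic actins, had 7596 ± 440 and 5751 ± 486 CPM. In the edgeR test 20 of the 41 were lower and 5 higher in the deep set, against 29.5% and 29.6% of all genes tested. FLNA, the filamin that crosslinks actin, had 5487, 4929 and 4865 CPM in the shallow and 4137 and 4120 CPM in the deep libraries. Its relative FLNC stood at 2908 ± 380 CPM. The tubulins TUBA1B and TUBB had 3298 ± 157 and 3273 ± 53.4 CPM. TMSB10, a small actin-binding protein, had 1615, 1493 and 1411 CPM in the shallow and 980 and 1092 CPM in the deep libraries and, being short, stood at a mean of 2657 CPM per kb, above the 2549 of ACTG1. Of the 41, 37 reached 100 CPM in every library. The lowest in CPM were CNN1, calponin, with 1.64 ± 0.649, TUBB2B with 3.71 ± 1.38 and MYL9 with 29.8 ± 4.93. Per length MYL9 was still above 74.7% of nuclear protein-coding genes.

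Actin genes are known targets of serum response factor, which binds the CArG box, CC followed by 6 A or T and GG. That motif was searched on both strands in the 250 bases before each annotated start. It was found in 4 of 38 cytoskeletal genes (10.5%), in 1.17% of all 15301 promoters, in 4.55% of the genes at 1000 CPM or more and in 1.44% of those under 0.1 CPM. The windows of 2 of the 25 most abundant genes are shown with the box in capitals, on GRCh38.p14 from RefSeq, each box beginning 94 bases upstream of the start.
ACTG1 (chr17:81512874-81512903, minus strand): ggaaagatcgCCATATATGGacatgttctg
FLNA (chrX:154374709-154374738, minus strand): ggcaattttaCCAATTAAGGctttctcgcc

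Of 42 matrix glycoproteins, proteases and inhibitors, 35 were expressed, with a sum of 10046.4 ± 232 CPM. CCN1, a matricellular protein, stood at 1085 ± 32.0 CPM and ADAMTS1, a metalloprotease, at 954 ± 94.4. LOX, which crosslinks collagen, had 748, 759 and 751 CPM in the shallow and 935 and 904 CPM in the deep libraries. MMP9 had 0.0298 ± 0.0242 CPM. The matrix sum differed little between the sets, from 9678.6 to 10294.4 CPM.

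Of 34 collagens, 19 were expressed, 55.9% against 56.8% of all protein-coding genes. COL12A1 had 216, 235 and 218 CPM in the shallow and 291 and 288 CPM in the deep libraries, and COL8A1 had 195 ± 14.1 CPM. COL4A2, of basement membranes, stood at 165 ± 14.1. Fibrillar collagens were uneven between libraries. On that list of 34, COL1A1 had 11.6, 14.4, 17.3, 36.1 and 16.7 CPM, COL3A1 had 7.57, 10.8, 15.4, 12.7 and 3.50, and COL1A2 had 4.58, 4.72, 5.38, 33.8 and 15.1. Per length COL8A1 led at 34.2 CPM per kb, followed by COL4A2 at 25.4 and COL12A1 at 21.3, all above COL1A1 at 2.86 and COL1A2 at 2.12.

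Receptors for this matrix were present in part, with 13 of 26 integrins expressed. ITGB1, the common beta subunit, had 783, 760 and 777 CPM in the shallow and 1014 and 1014 CPM in the deep libraries. ITGA3, its laminin-binding partner, stood at 979 ± 127 CPM, ITGA5, the fibronectin-binding one, at 276 ± 10.1 and ITGA7 at 172 ± 21.7. ITGAM, a leukocyte integrin, had 0.0393 ± 0.0484 CPM.

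Of 58 receptor tyrosine kinases, 25 were expressed (43.1%), and 5 of them reached 100 CPM in every library. AXL, a receptor of the TAM family, led with 1437, 1243, 1292, 1371 and 1362 CPM, or 283 CPM per kb. EPHA2, an ephrin receptor, had 473, 383, 416, 328 and 318 CPM. MET, the hepatocyte growth factor receptor, had 319, 290 and 284 CPM in the shallow and 425 and 418 CPM in the deep libraries, and EGFR had 204 ± 26.3. FGFR1 stood at 108 ± 6.14 CPM and ERBB2 at 61.4 ± 4.34. Per kb AXL was above EPHA2 (96.7 CPM per kb), MET (52.3) and EGFR (20.7). EPHA3, EPHA8, RET, ALK and ERBB4 each stayed under 0.1 CPM in every library.

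Of 40 secreted growth factors and antagonists, which act on these and other receptors, 26 were expressed. GAS6, the ligand of AXL, had 303, 293 and 320 CPM in the shallow and 226 and 224 CPM in the deep libraries. DKK1, a secreted Wnt antagonist, was highest per length at 160 CPM per kb, with 285, 270, 290, 290 and 295 CPM. WNT5B had 290 ± 32.4 CPM and DKK3 had 280 ± 15.6. FGF5 stood at 206, 203 and 192 CPM in the shallow and 276 and 267 CPM in the deep libraries, and INHBA, an activin subunit, at 235 ± 47.7. HGF, the ligand of MET, had 0.0298 ± 0.0127 CPM and IGF1 had 0.00309 ± 0.00691. GAS6 and AXL, but not HGF and MET, were thus both expressed as a ligand and receptor pair. IGF2 on that list of 40 differed between the sets, with 5.81, 15.5 and 12.7 CPM against 0.469 and 0.526, and the part of the other-tissue transcripts in it was not tested.

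**Figure D4:**
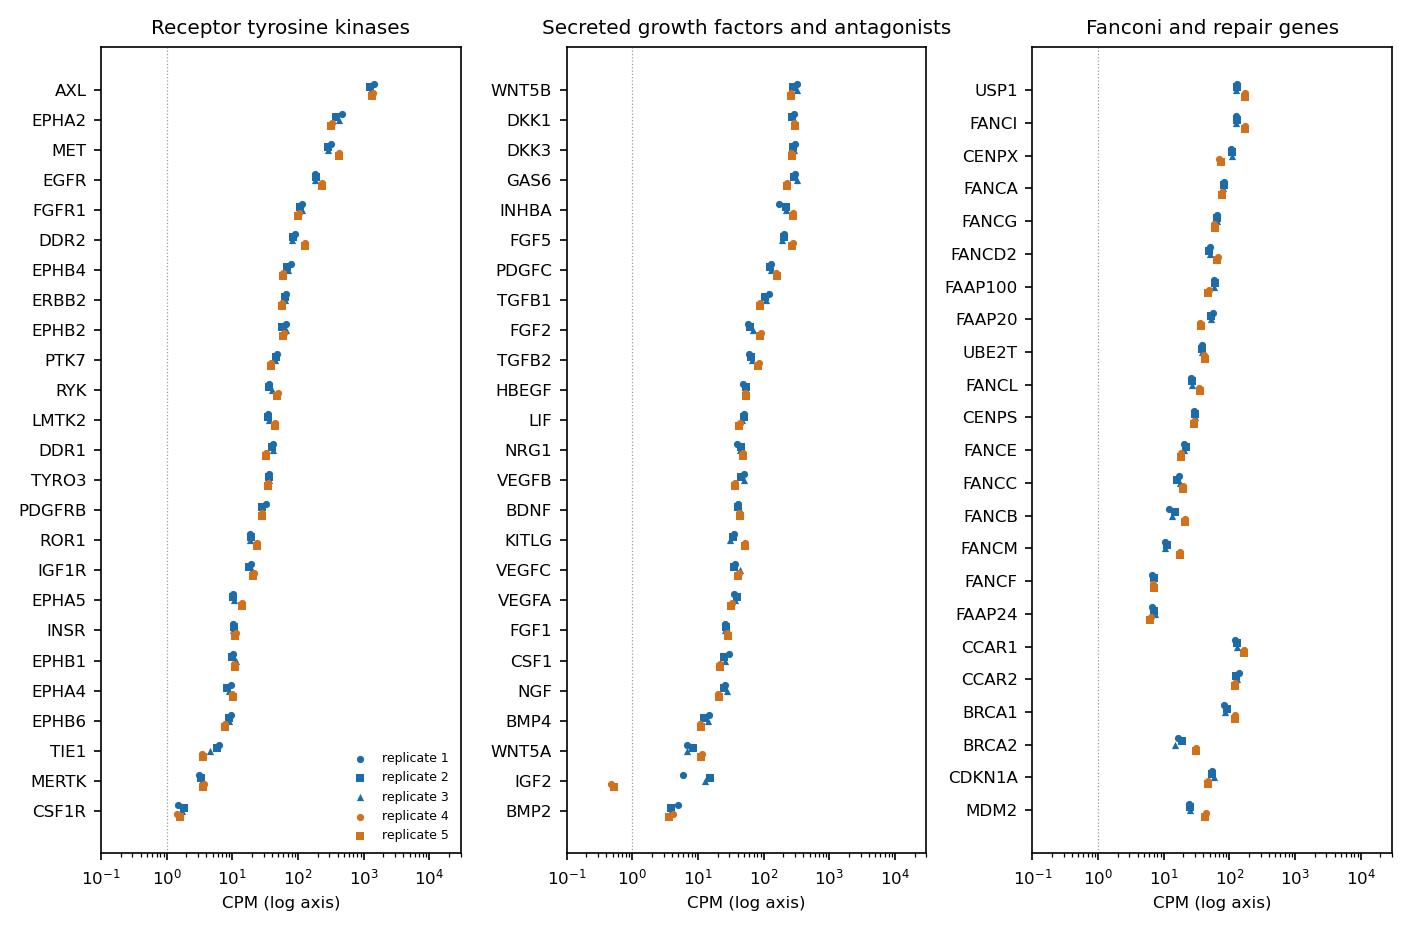
CPM in each library (log axis, dotted line at 1 CPM) of the 25 expressed receptor tyrosine kinases, the 25 growth factors and antagonists highest in mean CPM, and Fanconi, repair and cell cycle control genes. Blue marks are replicates 1 to 3 and orange marks replicates 4 and 5. AXL stands apart at 1243 to 1437 CPM, and all Fanconi genes lie above 1 CPM, USP1 the highest of them at 128 to 176 CPM.

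Of 33 glycolytic enzymes and glucose transporters, 23 were expressed, with a sum of 23268.5 ± 1566.3 CPM. GAPDH had 6905, 6694 and 6492 CPM in the shallow and 5341 and 5658 CPM in the deep libraries. ENO1 stood at 4726 ± 291 CPM, PKM at 3683 ± 290 and PGAM1 at 1306 ± 54.0. The genes not expressed were mostly forms of other tissues, such as the testis form PGK2 with no count and GAPDHS with 0.0183 ± 0.0315 CPM. The 13 mRNAs of mitochondrial DNA summed to 22401.2, 26794.0, 25069.5, 27369.1 and 28035.6 CPM. MT-CO1, a cytochrome oxidase subunit, had 7587 ± 623 CPM. Of 44 nuclear subunits of oxidative phosphorylation, 41 were expressed, with a sum of 5202.6 ± 337 CPM, led per length by ATP5F1B at 389 CPM per kb. The 3 others on that list, COX6A2, COX7A1 and COX4I2, are tissue-restricted subunits, and COX6A2 and COX7A1 had 0.885 to 1.56 CPM in the shallow libraries and at most 0.135 CPM in the deep ones.

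Of 30 chaperone and unfolded protein response genes, 29 were expressed. HSP90AA1, the inducible cytosolic HSP90, had 3566, 3872 and 3847 CPM in the shallow and 5138 and 5209 CPM in the deep libraries, a log2 difference of 0.46 (SE 0.049, edgeR adjusted p = 2.32e-05). CALR, an endoplasmic reticulum chaperone, had 1682 ± 94.1 CPM. The stress-response genes at the bottom of the list were low, with ATF3 at 2.78 ± 0.134 and CHAC1 at 2.14 ± 0.414 CPM. CRYAB, the member not expressed, had 3.51, 6.99 and 4.39 CPM in the shallow and 0.316 and 0.275 CPM in the deep libraries. Of 25 NRF2 targets and iron genes, 23 were expressed. FTH1, the ferritin heavy chain, had 1217, 2108, 1929, 1751 and 1852 CPM and FTL had 709, 1131, 1064, 854 and 920. For both, replicate 1 was the lowest library. MT2A, a metal-binding metallothionein, had 3095, 3348 and 2764 CPM in the shallow and 1776 and 2027 CPM in the deep libraries. In cholesterol synthesis and uptake 26 of 27 genes were expressed. SCD, a fatty acid desaturase, had 344, 428 and 466 CPM in the shallow and 561 and 564 CPM in the deep libraries. FDFT1, squalene synthase, stood at 233 ± 18.1 CPM.

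Genes of the dividing cell were expressed throughout. All 42 genes of G1/S and DNA replication and all 43 of G2 and mitosis were expressed. PCNA, the replication clamp, stood at 323 ± 18.9 CPM, MCM7 at 714 ± 64.7, RRM2, a ribonucleotide reductase subunit, at 652 ± 71.7 and TK1 at 268 ± 41.2. CDC20, an activator of the anaphase-promoting complex, had 435, 412, 408, 366 and 374 CPM, and CCNB1, cyclin B1, lay between 377 and 413 CPM. The lowest of each list were still above 4 CPM, POLE2 with 4.83 ± 0.624 and CDC25C with 18.6 ± 1.96. In G2 and mitosis 28 of 43 were higher and 6 lower in the deep set (edgeR, against 29.6% and 29.5% of all genes tested). The part of transcript length in that difference was not tested. On that list of 43, MKI67 had 688, 752 and 681 CPM against 893 and 883, and TOP2A had 436, 456 and 442 against 654 and 641.

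Of 21 D cyclins, CDKs, inhibitors and RB family genes, 17 were expressed. CCND1, cyclin D1, led with 1424, 1272, 1303, 1399 and 1376 CPM, or 315 CPM per kb. CDKN2A, which encodes p16 and ARF, had 230, 189 and 217 CPM in the shallow and 111 and 112 CPM in the deep libraries, a log2 difference of -0.93 (SE 0.077, edgeR adjusted p = 2.88e-05). On that list of 21, RB1 had 70.1 ± 16.7 CPM and CDKN2B had 8.97 ± 0.627. MYC, a growth regulator counted in that list, stood at 113 ± 7.05 CPM. Its relative MYCN stayed under 0.1 CPM in every library.

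Of 28 genes on the list of p53 targets, 25 were expressed. GADD45A, a stress-response gene, had 293, 273 and 284 CPM in the shallow and 204 and 203 CPM in the deep libraries. BAX, a pro-death BCL2 protein, had 175, 163 and 178 against 122 and 123 CPM. CCNG1 parted the other way, with 93.0, 95.8 and 92.0 against 132 and 136 CPM. On that list of 28, CDKN1A, the cell cycle inhibitor p21, had 53.9, 53.5, 57.8, 47.0 and 47.9 CPM, and MDM2, a ubiquitin ligase, had 24.7 to 25.4 CPM in the shallow and 44.3 and 42.6 in the deep libraries. GDF15 and BTG2 were low, at 1.15 ± 1.07 and 1.93 ± 1.95 CPM, and both were under 0.4 CPM in the deep libraries.

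Among BCL2 family genes 12 of 16 were expressed. BCL2L1, the anti-death protein BCL-XL, had 223 ± 20.7 CPM and MCL1 had 166 ± 7.89. On that list of 16, BCL2 had 12.7 ± 1.12 CPM. All 18 telomerase and telomere genes were expressed. TERT, the catalytic subunit of telomerase (chr5:1253147-1295069, minus strand), was the lowest of them in CPM, with 11.3, 8.79, 9.77, 7.77 and 7.30. Per length CTC1, of the telomere-capping CST complex, stood lower, at 1.41 CPM per kb against 2.24 for TERT. The TERT log2 difference of deep over shallow was -0.40 (SE 0.096, edgeR adjusted p = 0.00448). Whether these counts come from the gene of the cell or from an introduced copy cannot be told apart in gene counts, and the labels do not say how the line was immortalized.

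CCAR1, the gene disrupted in the other arm of the study, is a regulator of cell cycle and apoptosis that the series title calls a splicing factor. It lies at chr10:68721012-68792377 on GRCh38, plus strand. It had 123, 130 and 132 CPM in the shallow and 170 and 170 CPM in the deep libraries, a mean of 145 ± 23.0 CPM. The sets did not overlap, with a log2 difference of 0.40 (SE 0.038, edgeR adjusted p = 9.17e-06). Per length it stood at 30.9 CPM per kb, above 89.5% of nuclear protein-coding genes. Its paralog CCAR2 had 141, 125, 131, 122 and 122 CPM, or 26.4 CPM per kb, with a log2 difference of -0.12 (SE 0.048, edgeR adjusted p = 0.0503). All 13 genes of the list of coactivators that holds both were expressed, led per length by PRMT1, an arginine methyltransferase, at 207 CPM per kb, and by CTNNB1, beta-catenin, at 62.6.

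The pathway that the study names was expressed as a whole in the unedited cells. The Fanconi anemia core complex recognizes DNA crosslinks and attaches ubiquitin to the FANCD2-FANCI pair, which USP1 removes. All 17 genes of this list were expressed, with a sum of 843, 854, 842, 900 and 904 CPM. USP1 had 129, 130 and 128 CPM in the shallow and 176 and 174 CPM in the deep libraries, and its substrate FANCI had 128, 132 and 128 against 171 and 170. FANCD2 had 50.3, 48.9 and 50.2 CPM against 66.4 and 65.9. Of the core subunits FANCA had 81.9, 82.2, 80.6, 77.7 and 77.5 CPM and FANCG had 63.0 ± 3.04. The ubiquitin-conjugating enzyme UBE2T stood at 39.4 ± 1.95 CPM. CENPX, a small histone-fold subunit, was the highest per length at 105 CPM per kb. FAAP24, FANCF and FANCM were the lowest at 6.71 ± 0.406, 6.89 ± 0.229 and 13.6 ± 3.90 CPM. In the edgeR test 8 of the 17 were higher and 5 lower in the deep set, against 29.6% and 29.5% of all genes tested.

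Repair partners of that pathway were all expressed too. Of 31 homologous recombination genes all were expressed, with a sum of 1392.0, 1412.4, 1401.3, 1660.2 and 1660.7 CPM, and RPA2 and RPA1, which coat single-stranded DNA, led per length at 67.4 and 43.9 CPM per kb. On that list, BRCA1 had 82.0, 91.5 and 86.5 CPM in the shallow and 121 and 122 CPM in the deep libraries, and BRCA2 had 16.4, 19.3 and 14.9 against 31.5 and 30.7. In the edgeR test 20 of the 31 were higher and 4 lower in the deep set, against 29.6% and 29.5% of all genes tested. All 22 end-joining and 53BP1-shieldin genes were expressed. Of the Ku subunits, XRCC6 had 629 ± 44.0 CPM and XRCC5 had 445, 462 and 447 CPM in the shallow and 596 and 614 CPM in the deep libraries. PARP1 had 208 ± 5.31 CPM. The shieldin genes SHLD1 and SHLD3 were the lowest, at 1.26 ± 0.152 and 2.05 ± 0.332 CPM.

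Core splicing genes were expressed throughout and tissue-biased regulators in part. All 50 genes of the core spliceosome were expressed, led per length by SNRPB at 365 and SNRPD2 at 187 CPM per kb, with CWC22 lowest at 25.4 ± 4.32 CPM. With APPRIS lengths SNRNP70 at 262 and U2AF2 at 256 CPM per kb stood above SNRPD2. Of 39 SR and hnRNP proteins 38 were expressed. Their sum was nearly the same in every library, 18724.7, 18462.6, 18670.7, 18648.2 and 18664.4 CPM. HNRNPA1 had 2032 ± 101 CPM, HNRNPA2B1 had 1800 ± 37.5 and HNRNPK had 840 ± 71.8, while SRSF12 had 0.0355 ± 0.0204. Only 13 of 31 regulators with a known tissue bias were expressed. KHDRBS1 had 292, 293, 289, 301 and 300 CPM, MBNL1 had 199, 194 and 191 against 296 and 293 in the deep set, and RBFOX2 had 183 ± 14.3. The epithelial regulator ESRP1 had 0.00731 ± 0.0133 CPM, the neuronal regulator ELAVL4 had 0.00175 ± 0.00271, and on that list of 31 SRRM4 had 0.182 ± 0.0475.

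Of 16 genes of MHC class I and antigen processing, 14 were expressed. HLA-C had 455, 397 and 414 CPM in the shallow and 288 and 296 CPM in the deep libraries, and B2M, its light chain, had 222 ± 17.9. Of 11 MHC class II genes only CIITA, their activator, was expressed, at 3.56 ± 0.456 CPM. Of 33 interferon-stimulated and nucleic acid sensing genes, 25 were expressed. MAVS, an adaptor of RNA sensing, had 191 ± 12.1 CPM. CGAS, the cytosolic DNA sensor, had 0.145 ± 0.0269 CPM, and on the same list STING1 had 5.50 ± 0.812. Among 26 cytokines and chemokines 6 were expressed. IL11 led with 55.7, 68.2, 62.8, 54.4 and 55.3 CPM, followed by NFKBIA, an inhibitor of NF-kappaB counted in that list, at 19.3 ± 1.84 and CXCL8 at 14.3 ± 2.59. CXCL10, an interferon-induced chemokine, had a count in 1 library only.

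Of 30 listed long noncoding RNAs 25 were expressed, led per length by SNHG29 at 301 CPM per kb, SNHG6, ZFAS1 and GAS5, which host small nucleolar RNAs. Over the whole annotation the share was far smaller. It was 305 of 7458 long intergenic, 366 of 5528 antisense and 127 of 590 processed-transcript noncoding genes. On that list NEAT1 had 584 ± 78.9 CPM, MALAT1 had 244, 274 and 283 CPM in the shallow and 435 and 405 in the deep libraries, and H19 had 9.64, 12.6 and 10.2 against 0.124 and 0.145. TERC, the telomerase RNA, had 0.803 ± 0.142 CPM. Polyadenylated RNA was sequenced, so that value does not cover TERC RNA without a poly(A) tail. Replication-dependent histone mRNAs, which lack a poly(A) tail, were expressed in 4 of 30 genes with a sum of 32.1 ± 1.54 CPM. The replication-independent histones were expressed in 10 of 11 with a sum of 2944.1 ± 215 CPM, H2AZ1 leading at 877 ± 51.4.

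Transcripts of other tissues separated the shallow from the deep set. Of the 38 markers counted above, 14 are of skeletal muscle, 10 of erythroid cells and 14 of liver. The muscle markers summed to 548, 680 and 510 CPM against 17.5 and 16.9, the erythroid ones to 35.5, 124 and 49.9 CPM against 0.347 and 0.275, and the liver ones to 47.0, 130 and 111 CPM against 2.83 and 2.31. No library of the deep set reached any of the shallow ones in these sums. MYH2, a fast muscle myosin, had 54.5, 65.4 and 72.7 CPM against 0.00777 and 0.00308. ACTA1, skeletal actin, had 134, 154 and 91.2 CPM against 0.155 and 0.0831. HBG2, a fetal globin, had 12.8, 22.0 and 21.1 CPM against 0.00518 and 0, and ALB, serum albumin, had 8.22, 23.9 and 23.3 against 0.0388 and 0.0339. In edgeR all 14 muscle markers, 5 of 7 tested erythroid markers and 11 of 12 tested liver markers were lower in the deep set, against 29.5% of all genes tested. The 5 largest falls with at least 10 CPM in a set among protein-coding genes were ENSG00000284931, which overlaps HBG2 in the annotation, MYH2, TNNT3, HBG2 and RYR1. Of the 14, only TNNT1 and TTN stayed above 1 CPM in the deep set, at 9.25 and 9.30 CPM and at 7.17 and 6.76 CPM.

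In all, 97 genes had at least 1 CPM in every shallow library and under 0.1 CPM in both deep ones, with a mean sum of 799 CPM, and 80 of them are protein-coding. The reverse held for 3 genes. Among protein-coding genes with at least 10 CPM in a set, the largest rises in the deep set were DCN, a collagen-binding proteoglycan, with 1.33, 1.16 and 1.16 CPM against 13.3 and 8.98, COL1A2, PTP4A1, a phosphatase, with 24.2, 33.8 and 37.4 against 93.5 and 89.2, COL6A3, and the readthrough gene ISY1-RAB43. Below that level LUM, another such proteoglycan, had 0.139, 0.0520 and 0.174 CPM against 3.82 and 2.88. Whether the RNA of the other tissues came from the parental cells was not tested. Of the other marker lists, leukocyte genes summed to 4.94, 7.87 and 8.09 CPM in the shallow and 1.87 and 1.99 CPM in the deep libraries, with CD2 and MS4A1 at 0 in all libraries. Endothelial genes summed to 12.4, 11.7 and 10.4 against 5.67 and 5.80 CPM. All 9 tested were lower in the deep set, against 29.5% of all genes tested. Their levels were low, with 1 of 10 expressed and a median of 0.234 CPM. Photoreceptor genes summed to 4.50 to 6.2 CPM. The neuronal sum of 256 to 416 CPM was nearly all TUBB3, a tubulin at 303 ± 68.8 CPM, with ELAVL4 and STMN2 under 0.1 CPM.

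**Figure D5:**
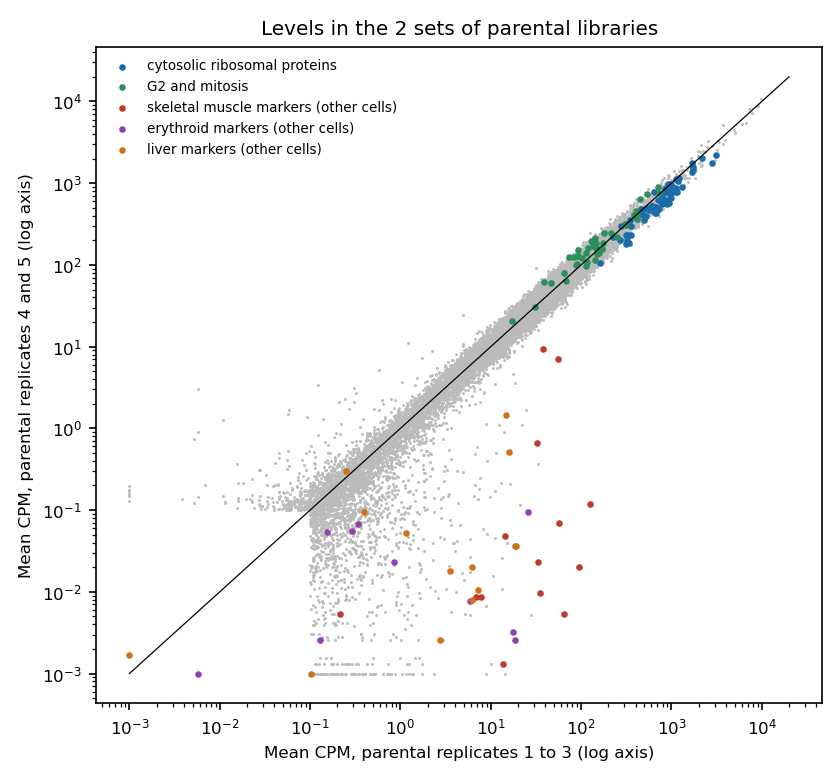
Each point is a gene, with its mean CPM in parental replicates 1 to 3 on the x axis and in replicates 4 and 5 on the y axis (both log) and the line of equality in black. Ribosomal proteins lie mostly just under the line and G2 and mitosis genes mostly just above it, while muscle, erythroid and liver markers fall far below it.

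Among genes with a mean of 50 CPM or more, PDCD2 had the smallest CV at 0.618%, with 59.5, 60.5, 60.2, 60.2 and 60.1 CPM. PI4K2A, a lipid kinase, followed with 0.697%, ANP32B, a histone chaperone, with 0.755%, NONO, a paraspeckle protein, with 0.865%, and BECN1, an autophagy factor, with 0.875%. GAPDH and ACTB, often used as references, had CVs of 11% and 5.80%, against a median of 7.41% for genes at 1000 CPM or more. Within the shallow and the deep set the CV was 3.09% and 4.08% for GAPDH and 5.14% and 0.399% for ACTB.

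Promoter sequence was compared with level across genes, as a description with no test. A promoter was called CpG-rich where its 300 bases had a GC content over 50% and an observed to expected CpG ratio over 0.6. That held for 28.1% of genes under 0.1 CPM, 46.2% at 0.1 to 1 CPM, 69.4% at 1 to 10 CPM, 85.4% at 10 to 100 CPM, 87.1% at 100 to 1000 CPM and 87.9% at 1000 CPM or more, against 64.1% of all 15301 promoters. Of pigment epithelium markers it held for 5 of 16, and of G2 and mitosis genes for 34 of 36. The letters TATAAA between 40 and 16 bases before the start, on the sense strand, were found in 8.17% of genes under 0.1 CPM, 1.05% at 10 to 100 CPM and 9.09% at 1000 CPM or more, the last being 6 of 66 genes.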

How the data were processed

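The authors deposited a table of estimated counts per gene for all libraries of the series, from polyadenylated RNA sequenced on an Illumina NovaSeq, per the labels' protocols. The counts came from kallisto 0.48.0 and hg38, per the submitters' processing notes. The annotation release, the step from transcripts to genes and the use of strand are unknown here.

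The 5 parental libraries were read by their titles and the other 5 were not analysed here. CPM is the count per 1e6 of the TMM-scaled library size (edgeR 4.0.16, R 4.3.3) over the 5 libraries, from unrounded counts. Length is that of the longest transcript in GENCODE 29, matched by gene ID for 92.8% of genes and 99.6% of the summed CPM. Differences between replicates 4 and 5 and replicates 1 to 3 were tested on rounded counts with edgeR's quasi-likelihood test after its default filter, with Benjamini-Hochberg adjustment over all 19522 genes tested and a threshold of 0.05. The test was checked on simulated data. The p-values measure only the spread between these libraries. The alternatives included other scalings, filters and lengths, DESeq2 1.42.0, limma 3.58.1, thinned counts and leaving out each replicate. Promoters (RefSeq, GRCh38.p14, from 250 bases before to 50 after the start) matched 77.2% of nuclear protein-coding genes.

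Named genes are CCAR1, CCAR2 and TERT, with a few others not reported here; the 25 highest in CPM; the 15 nuclear protein-coding genes highest per kb; in each list the 4 highest per kb and up to 3 lowest in CPM, or any member where the count of the whole list is given; the 5 largest changes each way between the sets among protein-coding genes with at least 10 CPM in a set; and the 5 genes of smallest CV with a mean of 50 CPM or more. The members, lists and alternatives were chosen with earlier results of these data known.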

Additional observations from a re-analysis of the deposited data

Results flagged for a closer look

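Replicate 1 stood apart in 2 of 76 groups of 5 values checked, 47 list sums and 29 single genes, and chance alone flags about 1 in 20 groups (5%). The summed level of NRF2 targets and iron genes was 5515.0 CPM in replicate 1 and 7417.7 to 7890.1 CPM in the others, a gap of 0.801 of the whole range. The list holds FTH1, FTL and NQO1, with NQO1, a quinone reductase, at 328 CPM in replicate 1 and 667 to 729 CPM in the others. MT-ATP6, an ATP synthase subunit of mitochondrial DNA, had 2131 CPM in replicate 1 and 2395 to 2482 CPM in the others, a gap of 0.753 of the range. The limit used for 5 values was 0.71.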

How the results depend on the processing

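Without the genes of mitochondrial DNA, the 100 most abundant genes held 19.5% of the counts, in place of 20.6%. Leaving out each replicate in turn gave 12616 to 12667 expressed genes, a share of the top 100 genes of 20.4 to 20.7%, and 8667 to 11979 genes that differed between the sets. The number of genes tested changed with the setting, so shares are given too. With 1 replicate left out, 42.9 to 49.8% of the genes tested differed, against 59.1% with all 5 libraries. Of 19522 genes, 10913 differed with DESeq2 (55.9%) and 11892 with limma-voom (60.9%). With replicates 4 and 5 thinned it was 10467 of 19061 (54.9%). A filter of 1 CPM in at least 2 libraries gave fewer genes but a larger share, 9935 of 13528 (73.4%). With replicates 4 and 5 alone, 142 of 350 named genes and 23 of 47 list sums moved by more than 1 SD. With replicates 1 to 3 alone, all 350 genes and all 47 sums stayed within 1 SD. That SD is over all 5 libraries and holds the gap between the sets, so a mean of 3 of them can hardly move that far. These counts therefore do not measure the size of the gap or which set is the unusual one. The median per kb of 11 of 47 lists moved with the union of exons as length, and of 8 with the longest APPRIS principal transcript, an alternative chosen after seeing the data. Of the 15 genes highest per kb, 10 were also among the 15 highest with APPRIS lengths. No paired analysis was possible because only 1 genotype was analysed. Depth limits the genes near 0: 3 counts are 0.0463 to 0.0521 CPM in the shallow and 0.00777 to 0.00923 CPM in the deep libraries.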

Other observations

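Gene families taken by their symbols, with no test, add to the picture of what the parental cells express. All 78 mitochondrial ribosomal proteins and all 34 aminoacyl-tRNA synthetases were expressed, with MRPS34 at 148 CPM per kb and SARS1 at 116 CPM per kb leading. Proteasome subunits numbered 38 of 40, and PSMA7, a core particle subunit, had 443, 390, 446, 301 and 308 CPM. RAB GTPases of membrane traffic numbered 56 of 75, kinesins 29 of 39 and numbered zinc finger proteins 390 of 518. Of 377 solute carriers 187 were expressed, led per length by SLC25A5, the mitochondrial ADP/ATP carrier, at 595, 581, 582, 567 and 578 CPM. SLC16A3, a lactate exporter, had 703, 639 and 679 CPM in replicates 1 to 3 and 433 and 438 CPM in replicates 4 and 5, with no overlap.

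Families of sensory and barrier tissues were near 0 with single exceptions. Of 389 olfactory receptors only OR2M3 was expressed, at 3.02 ± 0.86 CPM (SD, n = 5), and of 94 keratin-associated proteins only KRTAP2-3, at 41.7, 73.1, 64.6, 56.3 and 58.0 CPM. No beta-defensin (of 39) and no bitter taste receptor (of 24) was expressed. Of 97 potassium channel genes 16 were expressed, and KCNMA1, the calcium-activated BK channel, had 341, 325, 333, 347 and 340 CPM. Orphan G protein-coupled receptors numbered 21 of 78, with GPR176 at 201 ± 16.8 CPM. Of 66 protocadherins 11 were expressed, led per length by PCDHGA11 at 62.2 ± 1.95 CPM. Over the autosomes and X, the share of protein-coding genes that were expressed ran from 45.1% on X to 64.5% on 16.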
